A study of Mus musculus with 2 samples.

Results

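The natural killer gene complex is a stretch of mouse chromosome 6 that holds the genes of C-type lectin-like receptors. It was taken as every non-control probe whose start lay from position 128400000 up to 130400000 of chromosome 6 in the mm9 build, a stretch of 2 Mb. Membership rests on position alone, but the stretch and the thresholds used below were set with earlier results of these data known. This gave 398 of the 174638 genomic probes on each array. Neighbouring probes under 1000 bp apart, from start to start, were joined into tiled regions, which gave 53 of the 22170 regions of the array. The study measured DNA methylation by MeDIP-chip, in which DNA precipitated with an antibody against 5-methylcytosine (Cy5) is hybridised together with input DNA (Cy3) to a tiling array. The treated cells were mouse embryonic fibroblasts (MEFs) of strain C57BL/6 given 100 µM thymidine for 2 days, and the untreated cells were MEFs of the same strain without thymidine, with 1 array each. Both cultures came from E14.5 embryos, had been depleted of cells carrying CD45, CD41, CD31 and c-Kit, and were grown on mitomycin-treated MEF feeder cells. The labels of the treated sample name a CD45 sort and describe its input in conflicting ways, as plain MEFs and as thymidine-treated, so which culture gave that input is not settled. With 1 array per condition no test was possible, no difference can be set against a spread between replicates, and slide, sort and input origin cannot be told apart from the treatment.

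Receptors of this complex let natural killer cells and myeloid cells sense other cells. The Klra genes encode the Ly49 receptors, which bind MHC class I molecules. Klrd1 pairs with the Klrc products to bind the nonclassical class I molecule Qa-1, and Klrk1 encodes NKG2D, an activating receptor for stress-induced ligands. The Klrb1 genes encode NKR-P1 receptors, and Clec2 genes next to them encode their ligands. Clec7a encodes Dectin-1, a receptor for fungal beta-glucan, and Olr1 a scavenger receptor for oxidised low-density lipoprotein. Fibroblasts are not known to use most of these receptors. In natural killer cells, DNA methylation of Klra promoters is known to go with silent alleles.

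The array files give positions without gene names, and the RefSeq annotation used here belongs to a later build, GRCm38.p6, so no tiled region was assigned to a gene. In the gene order of GRCm38.p6, the block of family members ran from Klrb1a to Klra1 and held 38 protein-coding genes of the families listed. It opened with the 5 Klrb1 genes interleaved with the 7 Clec2 genes. It went on through Clec12a, Clec12b, Clec1b, Clec9a, Clec1a, Clec7a and Olr1, then Klre1, Klrd1, Klrk1, Klrc3, Klrc2, Klrc1, Klri1, Klri2 and Klrh1, and closed with the 10 Klra genes from Klra17 to Klra1.

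MeDIP enriches DNA that holds methylated cytosines, which in fibroblasts lie almost entirely in CG dinucleotides, so the number of CG in these promoters is given first. RefSeq promoters, 250 bases before to 50 after each start, were found for 34 of the 38 genes, 41 promoters in all. They held a median of 3 CG (range 0 to 7) in 300 bases, against a median of 7 (range 0 to 67) over all 32851 RefSeq promoters of the same length. None of the 41 held 10 or more CG, which 43.5% of all RefSeq promoters did. At least 1 CG was present in 92.7% of the promoters of the complex and in 94.6% of all. The 12 Klra promoters were at the low end, with a median of 2 and at most 4, and 2 of them held none. The 7 Clec2 promoters had a median of 4 and the 6 Klrb1 promoters a median of 2.5. CG reads the same on both strands, and CG are counts of letters, not of methylation. No probe was assigned to a promoter, so whether these counts go with the ratios below was not tested.

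Promoters of 4 genes show this range, with each CG in capitals, written 5′ to 3′ on the gene's strand from RefSeq (GRCm38.p6, positions not comparable with those of the array). Klrk1, the gene of the activating receptor NKG2D, held 4 CG (chr6:129623815-129624114, minus strand). Klrb1b encodes an NKR-P1 receptor and had the highest number in the list, 7, which it shares with Clec2m and Olr1 (chr6:128826259-128826558, minus strand). Klra4 encodes an activating Ly49 receptor and held 0 (chr6:130067222-130067521, minus strand). Gabarapl1 is an autophagy gene that lies between Olr1 and Klre1, is not a lectin-like receptor gene, and held 12 (chr6:129532942-129533241, plus strand).
Klrk1: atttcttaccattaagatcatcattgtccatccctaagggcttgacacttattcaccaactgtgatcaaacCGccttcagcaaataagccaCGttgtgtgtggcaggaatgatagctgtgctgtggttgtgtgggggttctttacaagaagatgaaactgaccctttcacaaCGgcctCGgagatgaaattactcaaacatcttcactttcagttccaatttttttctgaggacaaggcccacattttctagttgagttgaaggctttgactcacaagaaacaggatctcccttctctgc
Klrb1b: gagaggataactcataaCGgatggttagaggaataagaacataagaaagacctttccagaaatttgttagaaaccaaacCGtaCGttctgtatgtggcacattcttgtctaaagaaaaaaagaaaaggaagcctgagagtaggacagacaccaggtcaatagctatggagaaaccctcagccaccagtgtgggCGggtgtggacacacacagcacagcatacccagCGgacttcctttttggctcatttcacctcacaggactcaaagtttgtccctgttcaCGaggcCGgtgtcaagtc
Klra4: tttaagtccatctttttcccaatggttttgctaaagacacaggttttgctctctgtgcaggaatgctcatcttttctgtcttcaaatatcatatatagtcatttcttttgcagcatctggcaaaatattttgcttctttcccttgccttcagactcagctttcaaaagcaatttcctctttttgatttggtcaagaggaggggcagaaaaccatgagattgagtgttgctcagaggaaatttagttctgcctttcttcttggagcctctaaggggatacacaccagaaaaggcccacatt
Gabarapl1: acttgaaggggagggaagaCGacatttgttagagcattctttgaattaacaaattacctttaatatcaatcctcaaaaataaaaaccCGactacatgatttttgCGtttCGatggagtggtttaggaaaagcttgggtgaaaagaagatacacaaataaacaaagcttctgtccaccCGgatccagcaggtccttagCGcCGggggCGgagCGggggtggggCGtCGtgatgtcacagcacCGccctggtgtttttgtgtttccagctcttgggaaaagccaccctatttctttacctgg

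Of the 398 probes, 281 (70.6%) were kept, against 81.7% of probes outside the complex. The filter asked that the input be well above background on both arrays and that no outlier flag be set. All 117 lost probes failed on input signal, 85 on both arrays and 32 on the treated array only. Of the 53 regions, 50 had at least 3 kept probes and are called measured here. The other 3 had 1 kept probe each. They start at 129129333, 129690003 and 129725368, and their single probes differed by 0.44, 0.46 and -0.13, thymidine-treated minus untreated. A measured region had a median of 6 kept probes (3 to 9) over 1620 bp. The median raw signal of the 398 probes was 6.07 times local background in the input of the treated array and 5.93 times in that of the untreated array. The precipitate channel had 2.62 times on the treated and 2.95 times on the untreated array. Over all genomic probes the treated array had 10.8 times in the input and 5 times in the precipitate, and the untreated array had 10.1 times in the input and 5.94 times in the precipitate. The complex was therefore measured at lower signal than most of the array, and its ratios carry more uncertainty.

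Within the complex the precipitate was low relative to input on both arrays. All levels below are log2(Cy5/Cy3) of the processed signals, centred on the median of each array, so 0 is the array's median probe. The median over the 281 kept probes was -0.27 in treated MEFs (quartiles -0.81 and 0.15) and -0.38 in untreated MEFs (quartiles -0.95 and 0.16). The ratio was below 0 on both arrays in 38 of the 50 regions (76%), against 40.1% of all 21518 measured regions of the array, and above 0 on both in 5. A ratio of -1 or less was seen at 54 probes (19.2%) in treated and 68 (24.2%) in untreated MEFs, against 11.3% of probes outside the complex in treated and 15.0% in untreated MEFs. A ratio of 1 or more was seen at 11 probes (3.91%) on each array, against 7.61% outside in treated and 7.17% in untreated MEFs. Both channels were dim here. The median input level was -0.72 in treated and -0.75 in untreated MEFs relative to the array's median input, and the median precipitate level was -1.04 in treated and -1.07 in untreated MEFs relative to its own.

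The size of this depletion depended on the processing. With loess, which removes the dependence of the ratio on signal within each array, the median was -0.081 in treated and -0.060 in untreated MEFs, and with normexp background correction it was -0.11 in treated and -0.15 in untreated MEFs. The sign of the median over the complex stayed negative under these settings.

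**Figure D1:**
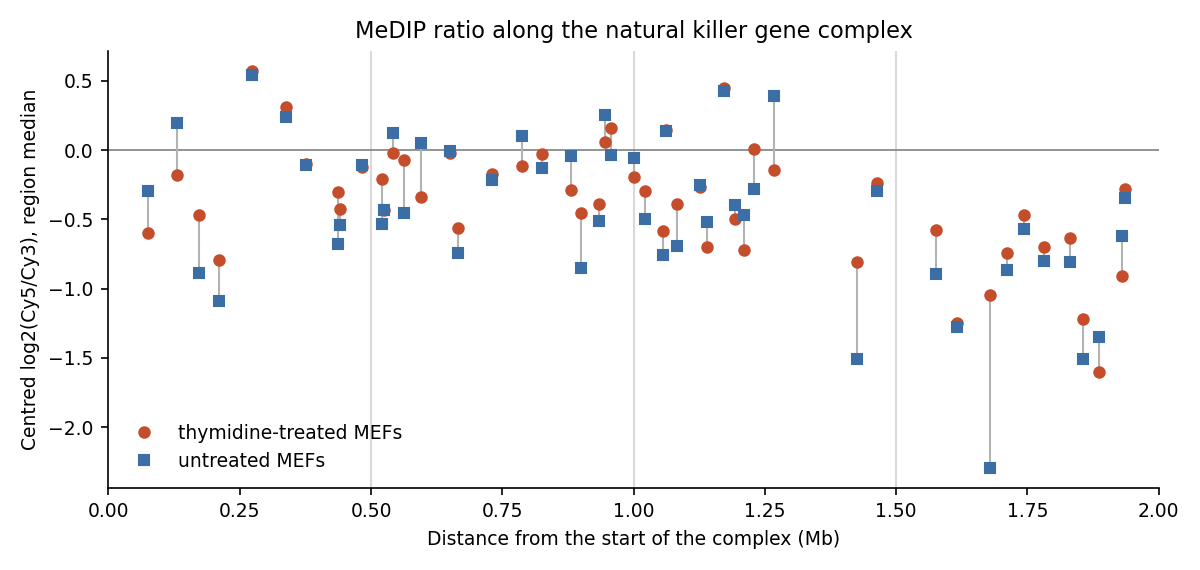
Median centred log2(Cy5/Cy3) of the 50 measured regions by distance from the start of the complex in Mb, in thymidine-treated MEFs (circles) and untreated MEFs (squares), joined by a line for each region; vertical lines mark steps of 0.5 Mb. All 11 regions of the last 0.5 Mb lie below 0 on both arrays, and the 5 regions above 0 on both lie in the first 1.5 Mb.

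The level was not even along the complex. In the first 0.5 Mb the median ratio over 51 probes was -0.21 in treated and -0.27 in untreated MEFs. In the next 0.5 Mb it was -0.16 in treated and -0.28 in untreated MEFs over 87 probes. In the 0.5 Mb after that it was -0.20 in treated and -0.19 in untreated MEFs over 82 probes. In the last 0.5 Mb, whose probes run from 129976476 to 130338159, it was -0.79 in treated and -0.89 in untreated MEFs over 61 probes. There, 41.0% of probes in treated and 45.9% in untreated MEFs had a ratio of -1 or less, and all 11 measured regions had a median below 0 on both arrays. The last 0.5 Mb was thus the most depleted part of the complex, by a similar amount with and without thymidine.

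Other measures moved with this. The precipitate of the last 0.5 Mb was at -2.14 in treated and -2.19 in untreated MEFs relative to the array's median, and the input was at -1.17 in treated and -1.10 in untreated MEFs. Its precipitate was well above background at 45.9% of kept probes on the treated and 47.5% on the untreated array. For many probes the ratio thus rests on a dim precipitate spot and is uncertain. Over the 27 probes measured in both channels, that is, with precipitate and input well above background on both arrays, the median was -0.17 on each array. Such probes had -0.099 in treated and -0.077 in untreated MEFs in the first 0.5 Mb, -0.052 in treated and -0.041 in untreated MEFs in the next, and -0.041 in treated and -0.0087 in untreated MEFs in the one after. Outside the complex they had 0.14 in treated and 0.15 in untreated MEFs. The last 0.5 Mb was still the lowest of the 4 stretches among these probes, but the gap to the others was much smaller than over all kept probes. With each array centred on such probes alone, the last 0.5 Mb had -0.31 in treated and -0.32 in untreated MEFs, and the first 1.5 Mb had -0.21 in treated and -0.19 in untreated MEFs. With loess the last 0.5 Mb had -0.27 in treated and -0.32 in untreated MEFs, and the first 1.5 Mb had -0.075 in treated and -0.014 in untreated MEFs. Their part in the difference along the complex was not tested.

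**Figure D2:**
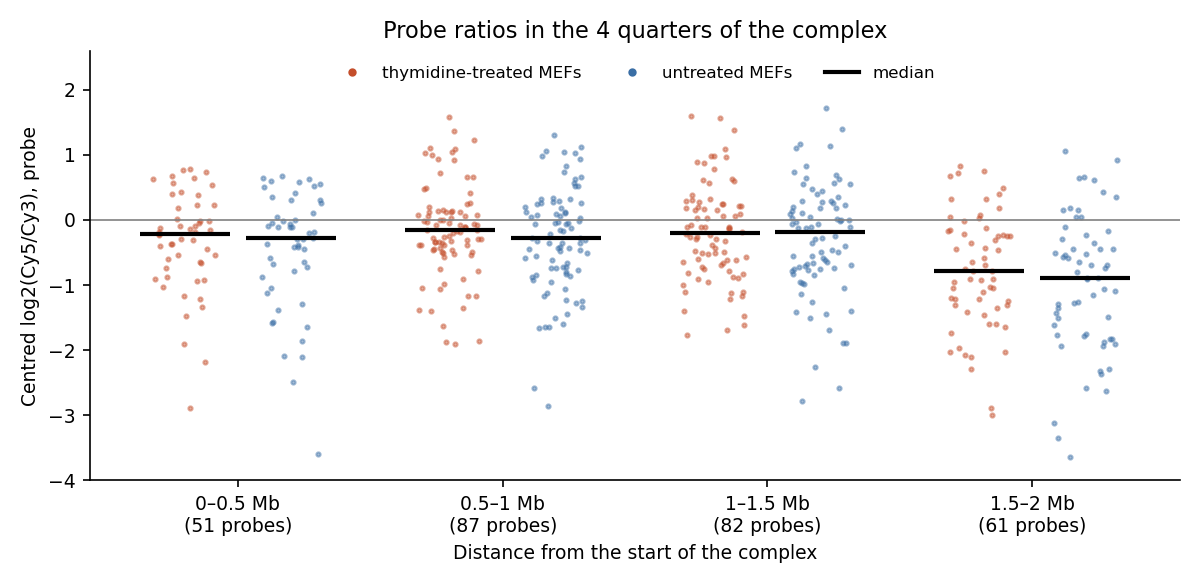
Centred log2(Cy5/Cy3) of each kept probe in 4 successive stretches of the complex, thymidine-treated MEFs left of untreated MEFs, with a bar at the median. The last stretch (61 probes) has medians of -0.79 in treated and -0.89 in untreated MEFs, and the others lie between -0.28 and -0.16.

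Probe length differed as well. Probes of this design have 45 to 60 bases, and the median was 55 bases in the complex, 60 in its last 0.5 Mb and 46 outside. Probes of the full 60 bases made up 34.4% of the complex, 52.0% of its last 0.5 Mb and 13.1% of the rest of the array. Outside the complex the ratio was lower in each longer class. Probes of 45 to 49 bases there had a median of 0.10 on each array, and probes of 60 bases -0.50 in treated and -0.56 in untreated MEFs. In the complex the ratio did not fall steadily with length. The short class had -0.13 in treated and -0.20 in untreated MEFs (122 probes), the class of 50 to 54 bases -0.24 in treated and -0.35 in untreated MEFs (55 probes), and the class of 55 to 59 bases, the lowest, -0.72 in treated and -0.82 in untreated MEFs (52 probes). The 60-base class had -0.38 in treated and -0.53 in untreated MEFs (52 probes). Among the short probes the last 0.5 Mb had -0.34 in treated and -0.56 in untreated MEFs over 12 probes, and the first 1.5 Mb had -0.09 in treated and -0.11 in untreated MEFs over 110 probes. Outside the complex the class of 50 to 54 bases had -0.28 in treated and -0.34 in untreated MEFs and that of 55 to 59 bases -0.38 in treated and -0.45 in untreated MEFs. The complex thus lay below the rest of the array in the shortest class and, by the most, in that of 55 to 59 bases, and slightly above it in the 60-base class. The part of probe length in the low ratios was not tested.

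The flanking chromosome gave a comparison with nearby positions. The 2 Mb below the complex had a median ratio of 0.12 in treated and 0.08 in untreated MEFs over 176 kept probes, and the 2 Mb above it had -0.29 in treated and -0.37 in untreated MEFs over 62. The rest of chromosome 6 had -0.01 in treated and -0.02 in untreated MEFs over 7298 probes. The level above the complex was thus close to that of the complex, and the level below it was higher. The flanks were not alike. Probes below reach up to 128389792, next to the complex, but those above run only from 131196960 to 132315396. Probes of 60 bases made up 41.4% of those above and 6.76% of those below.

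By region, 5 of 50 (10%) averaged -1 or less over the arrays, against 4.22% of all measured regions. Of these 5, 4 lay in the last 0.5 Mb. The lowest was the region from 130079565 to 130080064, with a median of -1.05 in treated and -2.29 in untreated MEFs over 3 probes. These probes read -2.89, 0.76 and -1.05 in treated MEFs and -3.35, 0.64 and -2.29 in untreated MEFs, and only the second was measured in both channels, so the region's level rests on dim spots. The region from 130287151 to 130288915 had -1.60 in treated and -1.35 in untreated MEFs over 5 probes, 2 of them measured in both channels. The region from 130256318 to 130259513 had -1.22 in treated and -1.51 in untreated MEFs over 9 probes, with 3 so measured. The region from 130014889 to 130018451 had -1.25 in treated and -1.28 in untreated MEFs over 7 probes, with 3 so measured. This was the region with the most probes in the complex, 15, and 8 of them were lost to dim input. The fifth, from 129826196 to 129827070, had -0.81 in treated and -1.51 in untreated MEFs over 3 probes. These levels depended on the processing. With loess the region from 130079565 was at 0.46 in treated and -0.02 in untreated MEFs. That from 130014889 was then at 0.05 in treated and -0.05 in untreated MEFs. Those from 129826196, 130256318 and 130287151 stayed below 0 on both arrays, but none averaged -1 or less.

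No region of the complex reached a mean ratio of 1, which 0.116% of all measured regions did. The highest was the region from 128672565 to 128674344, with 0.57 in treated and 0.55 in untreated MEFs over 7 probes, 6 of them measured in both channels. Next came the region from 129572215 to 129574724, at 0.45 in treated and 0.42 in untreated MEFs over 6 probes. The region from 128738160 to 128739715 had 0.31 in treated and 0.24 in untreated MEFs over 4 probes. The region from 129461414 to 129463062 had 0.15 in treated and 0.14 in untreated MEFs, and that from 129346105 to 129347540 had 0.06 in treated and 0.25 in untreated MEFs. All 5 lay in the first 1.5 Mb. The first region of the complex, from 128476242 to 128477928, had -0.60 in treated and -0.30 in untreated MEFs over 3 probes. The last, from 130336394 to 130338159, had -0.28 in treated and -0.35 in untreated MEFs over 6.

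Single probes within a region spread more widely than region medians did. Medians of several probes vary less than single probes by construction, so this order says nothing about the regions. The SD over probes within a region had a median of 0.71 in treated and 0.81 in untreated MEFs, and the SD between region medians was 0.42 in treated and 0.56 in untreated MEFs. Outside the complex the SD within regions was 0.69 in treated and 0.77 in untreated MEFs, and that between regions was 0.50 in treated and 0.56 in untreated MEFs. No error of a region's median was computed, so no rank between neighbouring regions is drawn from these values. The levels of the arrays correlated at r = 0.92 across the 281 probes and 0.85 across the 50 regions, against 0.93 and 0.91 outside. These correlations are between the arrays, which carry the same probes and so share probe length and base composition.

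The second question was where the ratio differed with thymidine. Over the 281 probes the median difference, treated minus untreated, was 0.12 (SD over probes 0.37), against 0.07 (SD 0.36) outside the complex. The ratio was higher in treated MEFs at 183 probes (65.1%), against 57.5% of probes outside. The median difference of the whole array was also 0.07, and relative to it the complex was higher by 0.05. Each array was centred on its own median, so this 0.07 is no rise in the level of the treated array. By channel, the median difference of the precipitate was 0.03 and that of the input -0.04, each relative to its median over the array.

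By region, 40 of 50 (80%) had a median difference above 0, against 65.1% of all measured regions, and the region medians ran from -0.32 to 0.82. To be counted, a region needed a median difference of 0.5 or more in either direction and 80% or more of its probes on that side of 0. This held for 2 of 50 regions (4%) on the higher side, against 0.706% of all regions, and for 0 of 50 on the lower side, against 0.0558%. Leaving aside size, every probe was higher in 5 regions (10%), against 4.93% of all, and every probe was lower in 0, against 1.26%. Counts this small cannot separate the complex from the array.

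**Figure D3:**
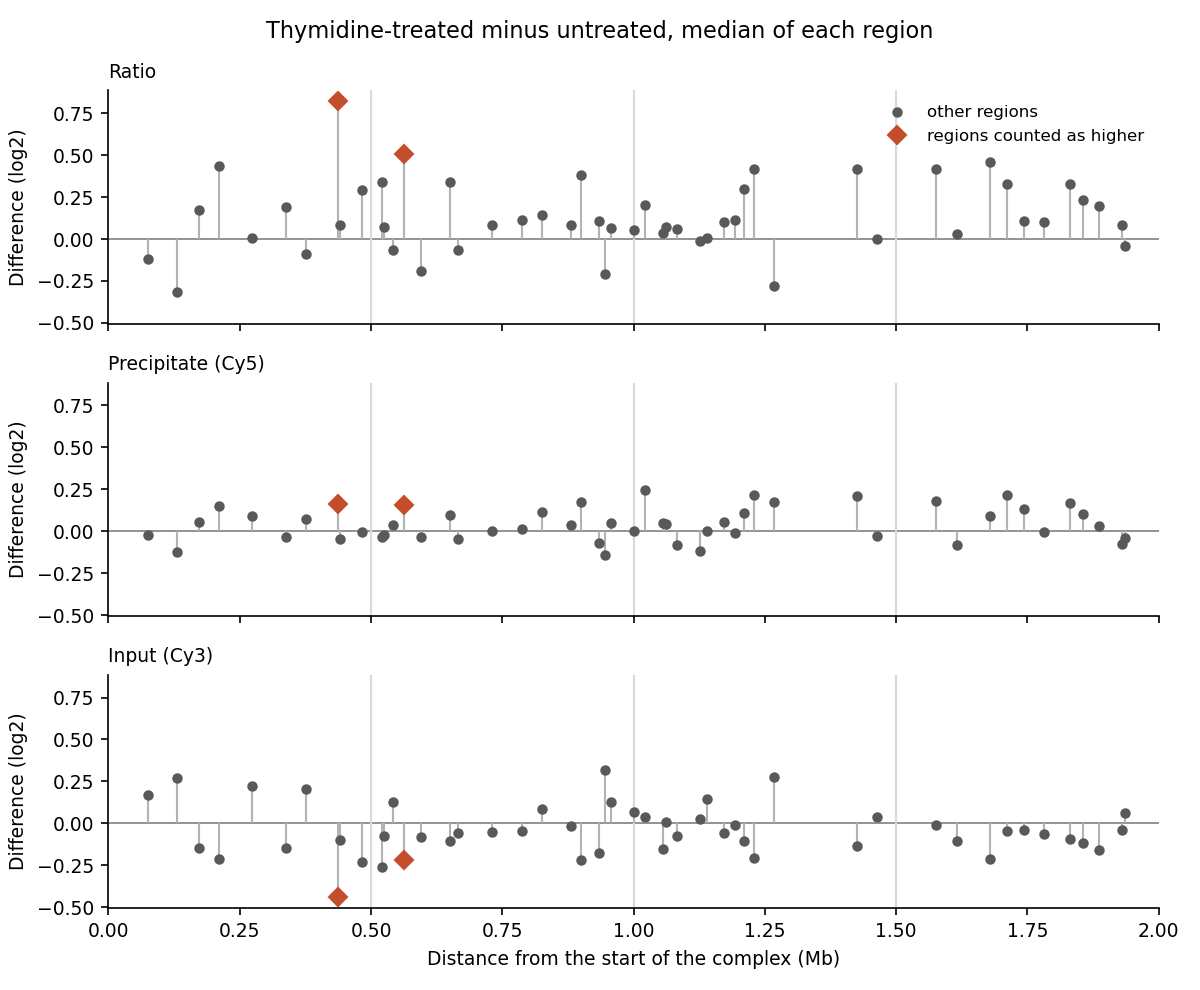
Difference in median log2 value of each of the 50 measured regions, thymidine-treated minus untreated, by distance from the start of the complex in Mb, for the ratio (top), the precipitate signal (middle) and the input signal (bottom); diamonds are the 2 regions counted as higher. Both diamonds sit at 0.16 in the precipitate panel, and in the input panel the left one sits at -0.44 and the right one at -0.22.

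The first of these regions, from 128836669 to 128837955, had 5 probes and the largest difference in the complex. Its high difference was known when the stretch and the thresholds were set, so its count is a description. The ratios along it were -0.30, 0.41, -0.65, -0.05 and -0.88 in treated MEFs, against -0.68, -0.42, -0.45, -0.87 and -1.87 in untreated MEFs. The treated array was higher at 4 of the 5 probes and lower at the third one. The median of the 5 differences, which need not equal the difference of the medians, was 0.82 (SD 0.49), and that of the 4 probes measured in both channels was 0.60. The scanner software's errors of these differences were 0.32 to 0.53, and 2 of the 5 differences were more than 2 such errors. The input of the region was lower by 0.44 in treated MEFs, and the precipitate was higher by 0.16. The region next to it, from 128840831 to 128842354, differed by 0.08 (SD over 6 probes 0.15).

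The second, from 128962830 to 128964601, had 6 kept probes of 9. Its ratios were -0.53, -0.11, 0.25, 0.41, -0.45 and -0.04 in treated MEFs, against -1.11, -0.87, -0.45, -0.02, -0.45 and -0.31 in untreated MEFs. All 6 were higher in treated MEFs, the fifth by 0.0044. The median difference was 0.50 (SD 0.29), at the threshold itself, and 0.35 over the 4 probes measured in both channels. The input was lower by 0.22 in treated MEFs and the precipitate higher by 0.16.

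The values of both regions varied with the processing. Normexp gave 0.44 for the first and 0.35 for the second, and the authors' deposited table gave 0.39 and 0.46. Neither passed the threshold there, but only 2 of 21518 regions were counted as higher with normexp and 4 in the authors' table. The normexp offset shrinks ratios by construction. The authors' ratios had a slope on the scanner ratios of 0.54 in treated and 0.50 in untreated MEFs. On these narrower scales the unchanged threshold cannot decide whether the regions kept their difference. With loess the first stayed above the threshold at 0.78, and the second was at 0.41. The second region fell below the threshold under each of the 8 settings run for single regions, so narrower scales are not the only case. It had 0.42 after quantile normalisation, where the first kept its call at 0.70. It again had 0.42 once the trend of the difference with level was removed, where the first kept its call at 0.68.

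**Figure D4:**
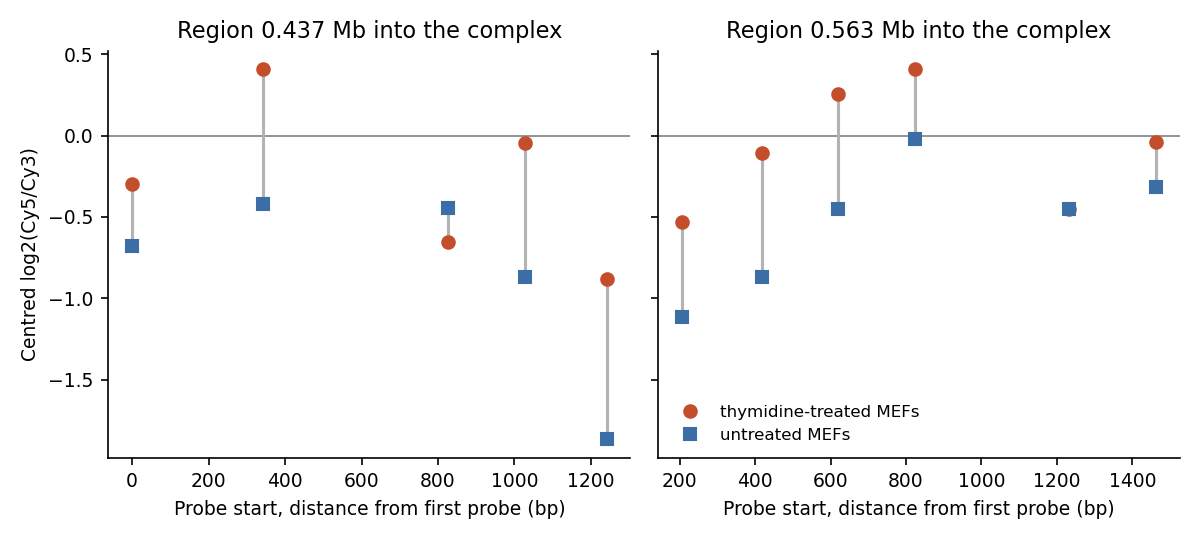
Centred log2(Cy5/Cy3) of each kept probe in the 2 regions counted as higher, by distance from the first probe in bp, in thymidine-treated MEFs (circles) and untreated MEFs (squares). In the left region the third probe goes against the other 4, and in the right region the fifth probe has the same ratio of -0.45 on both arrays.

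The regions that followed formed no clear group, and none passed the threshold. The region from 130079565 to 130080064 had 0.46 (SD 0.58 over its 3 probes), but 0.11 at its single probe measured in both channels. The region from 128611117 to 128612641 had 0.43 (SD 0.21), with all 4 kept probes higher and all measured in both channels. Its ratios were -2.88, -1.22, 0.23 and -0.37 in treated MEFs, against -3.59, -1.59, -0.27 and -0.59 in untreated MEFs. The region from 129628504 to 129630281 had 0.42 (SD 0.37), with 4 of 6 probes higher. The region from 129976476 to 129978237, named after its value was seen, also had 0.42 (4 of 5 probes higher). Its 2 probes measured in both channels had a median difference of -0.0073. The region from 129826196 to 129827070 had 0.41 (3 of 3 higher), and 0.45 over its 2 such probes. In the region of 4 probes the input difference was -0.21 and the precipitate difference 0.15, and in that of 6 probes they were -0.20 and 0.22.

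The lowest difference was that of the region from 128531139 to 128532694, at -0.32 (SD over 6 probes 0.59), with ratios of -0.18 in treated and 0.20 in untreated MEFs. The region from 129666651 to 129668319 had -0.28 (SD over 3 probes 0.30). The regions from 129346105 to 129347540 and from 128994619 to 128996138 had -0.21 (SD 0.31) and -0.19 (SD 0.33), over 3 probes each. The fifth, the first region of the complex, had -0.12 (SD over 3 probes 0.40). None of these 5 had probes of one sign only, and each of the 5 had an SD larger than its difference.

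The difference went with the input and with the level of the ratio. Across the 50 regions it correlated at r = -0.80 with the input difference, 0.61 with the precipitate difference and -0.39 with the mean ratio, and across the other regions of the array at -0.72, 0.46 and -0.29. The input is the denominator of the ratio and the precipitate its numerator, so the correlations with both channels are in part built in. That with the mean ratio is in part built in as well. The mean and the difference use the same values, which spread less in treated than in untreated MEFs (SD between regions 0.42 and 0.56). Probes of the complex with a mean ratio between -2 and -1 had a median difference of 0.36 over 48 probes, against 0.31 at the same level elsewhere. Above -1 the difference did not fall steadily with level in the complex. Probes between -1 and -0.5 had 0.11, against 0.15 elsewhere, and those between -0.5 and 0 had 0.11, against 0.026. Those between 0 and 0.5 had -0.066 over 58 probes, against -0.0049, those between 0.5 and 1 had 0.10 over 26 probes, against 0.022, and those above 1 had 0.15 over 10 probes, against 0.035. Probes below -2 had 0.64 over 13 probes, against 0.49. In this lowest class 7.69% of the probes of the complex were measured in both channels. The complex held more probes at low levels, 17.1% between -2 and -1 against 8.65% elsewhere. Once the trend of the difference with the level was removed over the whole array, the median difference of the complex was 0.031.

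**Figure D5:**
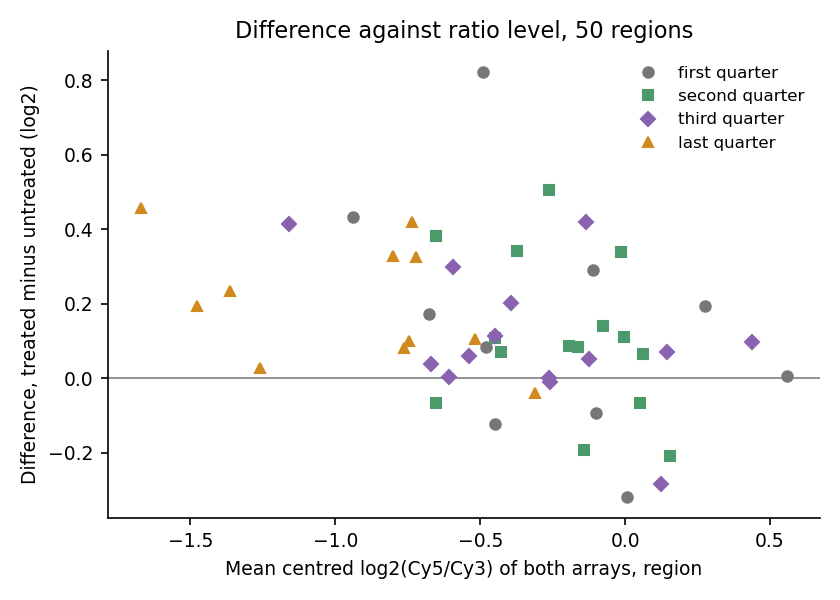
Difference of each of the 50 measured regions, treated minus untreated, against its mean centred log2(Cy5/Cy3) over both arrays, with a marker for each successive 0.5 Mb of the complex. The correlation is -0.39 across regions, and the 2 highest points, 0.82 and 0.50, belong to the first and second stretch.

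Single probes with large differences were few. A difference of 1 or more was seen at 4 of 281 probes (1.42%), against 1.07% of all probes, and one of -1 or less at 0, against 0.0926%. By the scanner software's own errors, 5 probes (1.78%) were higher by more than 2 errors, against 1.83% of all, and 2 (0.712%) were lower, against 1.12%. These shares were close to those of the whole array.

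The median differences of the 4 successive stretches of 0.5 Mb were 0.11, 0.14, 0.08 and 0.15. The SD over probes was between 0.35 and 0.41 in each, and whether the stretches differ was not tested. The flanks had 0.06 below and 0.09 above the complex.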

How the data were processed

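DNA was hybridised to 2 arrays, 1 per condition. Per the file headers, the probe positions are of the mm9 build and Agilent Feature Extraction 11.0.1.1 extracted the spots. It subtracted background and applied a linear dye factor, which gave the deposited processed intensity values. Raw median intensities of the spot and its surroundings were deposited too. The deposited log10 ratios equalled those of the processed signals within 1e-05 (log2) at 96.9% of probes on the treated and 97.4% on the untreated array, and their errors are the scanner software's. The authors' deposited table of log ratios was taken as log2, with base, centring and smoothing not given in the sources used here. For treated MEFs it correlated at 0.88 with the scanner ratios (slope 0.54) and had a median of -0.02. For untreated MEFs it correlated at 0.90 (slope 0.50) and had a median of -0.01.

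From these, log2(Cy5/Cy3) was centred on each array's median over 142569 kept probes, in Python 3.11.15, with no loess or quantile step. Channel levels were centred per array, and channel differences on their median. The difference is treated minus untreated. Named regions are the 5 highest and 5 lowest by difference and by mean ratio, the first and last, and any counted region. The window, members, lists and thresholds were chosen with earlier results of these data known, and the region from 128836669 was then known to have a high difference. The promoters printed were chosen after their CG counts were seen. Genes were not assigned to probes, since the annotation used here belongs to another build. Alternatives used limma 3.58.1 in R 4.3.3.

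The number of arrays limits the precision. Spots of 1 control probe (35 probes on 3078 spots) had a median SD in log2 ratio of 0.16 on the treated and 0.15 on the untreated array. Their mean differences between arrays ran from -0.74 to 0.62, as wide as those of the regions.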

Additional observations from a re-analysis of the deposited data

How the results depend on the processing

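No replicate could be left out and no paired analysis was possible because each condition had 1 array. A value is called moved when it left the 95% order-statistic interval of its median, or when a count changed by over 1.5 times. That interval is over probes, taken as independent, and does not measure a spread between replicates. The median difference of 0.12 stayed above 0 under every setting run. The median difference of the whole array was also above 0 under most settings, at 0.066 in the main one, so this sign is in part that of the array. The median difference moved to 0.055 with loess (all probes 0.031) and 0.033 after quantile normalisation (all probes 0.0036). It moved to 0.031 without the trend on level (all probes 3.7e-05) and 0.032 from the precipitate signal alone (all probes 0). It was 0.052 when centred on the array's median difference, a setting added after the data were seen. The other settings gave 0.08 to 0.14, against 0.010 to 0.066 over all probes. The median ratio moved to -0.11 in treated and -0.15 in untreated MEFs with normexp, to -0.081 in treated and -0.060 in untreated MEFs with loess, to -0.16 in treated and -0.19 in untreated MEFs in the authors' deposited table, and to -0.13 in treated and -0.20 in untreated MEFs over probes of 45 to 49 bases (added later). In untreated MEFs it moved to -0.20 with both channels well above background.

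The 2 regions higher with thymidine became 0 with normexp, with both channels well above background, from the precipitate alone and in the authors' table. The count became 1 with loess, after quantile normalisation, without the trend on level and with the centred difference. Over all 21518 regions such calls fell too, from 152 to 2 with normexp, 0 from the precipitate alone and 4 in the authors' table. They fell to 104 with loess, 15 after quantile normalisation, 15 without the trend and 55 with the centred difference. With both channels well above background, 36 regions of the complex were measured, and 78 of 20139 over the array were counted as higher. With no filter on dim probes the count in the complex stayed at 2, against 105 of 21986 over the array. The region from 128962830 then no longer passed (0.40) and that from 129826196 did (0.59). The count of lower regions was 0 under every setting. The count of 5 regions averaging -1 or less became 0 with normexp, loess and the authors' table. Over all 21518 regions that count fell from 907 to 292 with normexp, 570 with loess and 511 in the authors' table. With both channels well above background it was 1 of 36, against 339 of 20139 over the array. Of the 5 regions, those from 129826196, 130079565 and 130287151 then had 2, 1 and 2 probes, under the minimum of 3. With at least 5 probes per region the count was 3 of 35, against 663 of 18493. Without the last 0.5 Mb (added later) it was 1 of 39, against 903 of 21507. The normexp offset of 50 shrinks ratios by construction, and the cause of the other moves was not tested. Of the 19 named differences, 15 to 17 kept their sign under each of the 8 settings run for single regions, and both regions counted as higher did so under all 8. Every setting reuses the same arrays, and these regions were picked by their high difference. A kept sign is therefore no independent support for them. Dim signal limits the last 0.5 Mb most, where the precipitate was well above background at 45.9% of kept probes on the treated and 47.5% on the untreated array.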
